A study of Mus musculus with 3 samples.

Results

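The gene set described here held the small GTPases of the Rab family, the proteins named for them that regulate or read them, and the core genes of autophagy. Its members were all protein-coding genes of GENCODE M21 whose symbol is Rab or Atg followed by a digit, or starts with Map1lc3, Gabarap or Wipi. There were 95 such genes of 21938, of which 69 were named for Rab and 26 for autophagy. Histone H3 trimethylated at lysine 36 (H3K36me3) was profiled by ChIP-seq in regulatory T cells (Treg cells) of spleen and large intestine (LI), and each gene was compared between the tissues. The spleen and LI samples were both CD3+CD4+Foxp3-YFP+ cells sorted from untreated adult C57BL/6 mice, at steady state, that carry the Foxp3-YFP genotype (the Foxp3Cre-YFP allele), which expresses Cre recombinase and a yellow fluorescent protein from the Foxp3 locus. Cells of 7 male and 7 female mice were pooled, and each tissue gave 1 library. Every difference below is therefore between 2 libraries and has no replicate check, and mice of different sex cannot be told apart. An input library of splenic Treg chromatin was not analysed here.

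Rab proteins are molecular switches: bound to GTP they sit on a particular membrane and recruit effectors that move, tether or fuse vesicles, and bound to GDP they are extracted again. Guanine nucleotide exchange factors turn them on and GTPase-activating proteins turn them off. In autophagy, a double membrane closes around cytoplasm and fuses with the lysosome, and ubiquitin-like proteins of the Atg8 family (Map1lc3 and Gabarap) are coupled to lipid on that membrane by Atg enzymes. In T cells these routes carry receptors to and from the surface, release cytokines and granules, and recycle organelles, and Treg cells without autophagy genes are known to be unstable. H3K36me3 is written by Setd2 as it travels with elongating RNA polymerase II, so the mark lies over the bodies of transcribed genes and grows toward their ends.

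By the bound of the counting interval nearer to 0, the set differed most between the tissues at Rab20, an endosomal and phagosomal Rab that carried more of the mark in LI, and toward spleen at Rab3ip (Rabin8), an exchange factor for Rab8. The ratios of Rab25 and Rab4a were larger than that of Rab3ip, with wider intervals. Their sequences are shown for the peaks that stood farthest apart between the libraries and were short enough to print whole. These were chosen after the values were seen. All are on the plus strand of mm10 (GRCm38), lie in introns, and have CG dinucleotides, the usual sites of DNA methylation, in capitals.
Rab20 peak chr8:11460589-11460827: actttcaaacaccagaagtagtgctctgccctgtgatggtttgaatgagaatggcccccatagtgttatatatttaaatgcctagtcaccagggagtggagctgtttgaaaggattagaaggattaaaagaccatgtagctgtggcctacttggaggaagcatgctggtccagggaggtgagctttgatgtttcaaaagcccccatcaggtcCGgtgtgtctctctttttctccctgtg
Rab20 peak chr8:11467446-11467682: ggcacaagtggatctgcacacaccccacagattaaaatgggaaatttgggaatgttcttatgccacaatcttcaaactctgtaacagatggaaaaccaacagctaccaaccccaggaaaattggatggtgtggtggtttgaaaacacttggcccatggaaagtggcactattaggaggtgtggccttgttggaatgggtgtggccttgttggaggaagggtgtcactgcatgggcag
Rab20 peak chr8:11474731-11474933: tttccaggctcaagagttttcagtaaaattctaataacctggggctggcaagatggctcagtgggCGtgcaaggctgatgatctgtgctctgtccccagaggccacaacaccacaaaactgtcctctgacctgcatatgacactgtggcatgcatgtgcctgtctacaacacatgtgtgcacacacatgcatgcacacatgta
Rab3ip peak chr10:116928832-116929080: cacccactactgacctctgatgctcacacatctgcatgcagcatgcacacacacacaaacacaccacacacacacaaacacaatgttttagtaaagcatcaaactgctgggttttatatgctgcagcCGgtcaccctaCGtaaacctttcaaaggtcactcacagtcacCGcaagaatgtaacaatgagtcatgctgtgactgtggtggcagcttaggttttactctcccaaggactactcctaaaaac
Rab3ip peak chr10:116940197-116940412: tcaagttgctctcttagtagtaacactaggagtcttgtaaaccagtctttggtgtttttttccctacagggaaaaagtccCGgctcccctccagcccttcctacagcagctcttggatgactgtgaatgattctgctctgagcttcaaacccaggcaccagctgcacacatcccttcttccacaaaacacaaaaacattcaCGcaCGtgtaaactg
The 3 Rab20 peaks had 1.75, 2.62 and 0 RPKM in spleen and 8.89, 12.6 and 10.9 RPKM in LI, in the order printed. The Rab3ip peaks had 18.4 and 9.31 RPKM in spleen and 5.66 and 1.24 RPKM in LI. The printed Rab20 peaks held 1, 0 and 1 CG dinucleotides and the Rab3ip peaks 3 each, at a GC content of 46.2% to 49.8%, close to the median of 46.5% over all peaks.

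RPKM is read coverage per kilobase scaled to sequencing depth, averaged over a peak. The peaks whose midpoint lay in a gene body were summed per library, and the log2 ratio of LI over spleen was taken after scaling each library to its total over all 120910 peaks. The values corresponded to about 29600000 mapped reads for spleen and 38100000 for LI. From these an approximate 95% counting interval was set for each ratio, which covers counting error alone. The sorted cells carried the mark at the 5 Treg and T cell genes examined (Foxp3, Il2ra, Cd4, Cd3e and Ctla4), with 132.5 RPKM at Foxp3 in spleen and 156 RPKM in LI. Of 7 markers of intestinal epithelium 3 had a peak, with 55.1 RPKM in sum in spleen and 93.8 RPKM in LI, and Cdx2, Krt8, Krt20 and Muc2 had none. Of the B cell markers, Cd79a and Pax5 had peaks, with 51.3 RPKM in sum in spleen and 39.7 RPKM in LI, and Ms4a1 and Ebf1 had none. Of 5 myeloid markers Csf1r alone had a peak (14.7 and 16.3 RPKM), and of 2 CD8 T cell markers Cd8b1 alone (21.1 and 9.46 RPKM). The part of other cells in the differences below was not tested, and a change in the share of cells that carry the mark cannot be told apart from a change in its amount per cell.

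Most genes of the set carried H3K36me3 in Treg cells, and most carried similar amounts in both tissues. A peak lay in the body of 68 of the 95 genes (71.6%), against 45.8% of all protein-coding genes. Of these, 67 passed the filter of 20 RPKM over both libraries and had a ratio. Rab25, at 21.4 RPKM over both libraries, was the lowest gene inside the filter, and Rab11fip2, at 16.9 RPKM, the gene outside it. The filter kept 38 of the 59 Rab GTPases, 7 of the 10 effectors and regulators of Rabs, and 22 of the 26 autophagy genes, with 794 peaks.

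The median log2 ratio of the 67 genes was 0.03 (binomial 95% interval over genes, -0.10 to 0.09), and that of the 9456 protein-coding genes tested was 0.00. This interval takes genes as independent, but they are not replicates and all share the same 2 libraries. It measures no variation between mice or libraries. LI was the higher library in 37 of the 67 genes (55.2%), against 50.7% of all genes tested. Past 2-fold, 1 gene was higher in LI (Rab20) and 1 in spleen (Rab25), where 3.21% and 1.81% of all genes tested were. Past 1.5-fold, 2 genes were higher in LI (Rab20 and Rab4a) and 2 in spleen (Rab3ip and Rab25), where 9.02% and 5.58% of all genes were. The counting interval lay above 0 in 11 genes and below 0 in 4, against 17.5% and 15% of all genes. This takes a read as covering 200 bp, and intervals below said to hold 0 do so at that length. With reads of 75 bp it lay above 0 in 17 genes and below 0 in 13, against 26.4% and 24.6% of all genes. The SD of the ratio was 0.41 over the 67 genes and 0.47 over all genes tested, at a median counting error of 0.16 on the log2 scale in each. The ratios of the set were thus no wider than those of genes at large.

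**Figure D1:**
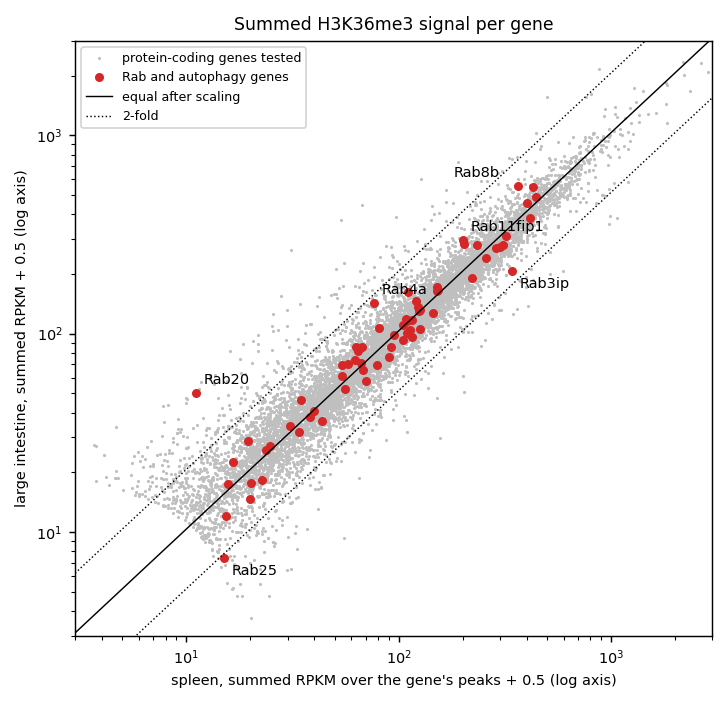
Summed H3K36me3 signal per gene in spleen (x axis) and LI (y axis), in RPKM plus 0.5 on log axes, for the 9456 protein-coding genes tested (grey) and the 67 Rab and autophagy genes (red). The solid line marks equal signal after scaling and the dotted lines 2-fold differences, beyond which lie Rab20 (10.6 RPKM in spleen and 49.9 RPKM in LI) and Rab25.

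Peaks richer in G and C tended to be higher in LI. Over all 9456 genes tested, the Pearson correlation of the ratio with the median GC content of a gene's peaks was 0.33, and over the 67 genes it was 0.08 (genes are not replicates, and these share both libraries). Correction in 20 bins of peak GC content moved the ratio by over 0.1 in 37 of the 67 genes, by 0.37 at most (Atg3), and turned its sign in 11. Corrected ratios are given below for the genes chosen by the naming rule at the end where they moved by more than this. Some other genes mentioned below also moved by more without a corrected ratio being given. After this correction the share of the set higher in LI was 48.5%, against 47.7% of all genes.

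Among the Rabs of the early endosome, which sort newly internalised cargo, Rab20 stood apart from the rest. Rab20 (ENSMUSG00000031504.6, chr8:11453518-11478710, minus strand) held 4 peaks that summed to 10.6 RPKM in spleen and 49.9 RPKM in LI. All 4 peaks were higher in LI, along the intron and in the last exon, where the strongest had 6.25 RPKM in spleen and 17.5 RPKM in LI. The fold was 4.39 (counting interval 2.44 to 7.91), the 24th highest of 9456 genes. Rab20 passed the filter of 20 RPKM only through LI, the library where it was high. The interval and the rank do not allow for this selection. The gene was lightly marked, with 0.31 RPKM per base of its body in spleen and 1.05 in LI, and its spleen value rests on about 21.2 reads. Its log2 ratio of 2.13 was 2.02 after GC correction, 1.64 with peaks weighted by length and 1.34 for the only peak of 1 kb or more. When peaks were given to the nearest transcript start, Rab20 had no value, so 0 genes of the set were past 2-fold in LI.

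The other 5 early endosome Rabs had log2 ratios between -0.26 and 0.07. Rab5a, Rab5b and Rab5c drive fusion of early endosomes. Rab5a (chr17:53479234-53507680) had 219.9 RPKM in spleen and 189.7 RPKM in LI over 22 peaks, a log2 ratio of -0.26 (-0.50 to -0.02), which was -0.04 after GC correction and -0.79 for its strongest peak alone. Rab5c had 145 RPKM in spleen and 127 RPKM in LI, a ratio of -0.24 (-0.50 to 0.02), and turned to 0.11 with peaks weighted by length. In LI Rab5c was the denser, at 8.22 RPKM per base. Rab22a, a relative of Rab5 that acts in endosomal recycling, was the most densely marked of the list on average of both libraries, with 7.86 RPKM per base in spleen and 7.82 in LI. Its 25 peaks summed to 300.3 RPKM in spleen and 272 RPKM in LI (-0.19, -0.36 to -0.01), and its strongest peak alone gave -0.00. Rab21 and Rab5b had ratios of 0.07 and 0.04.

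The recycling and exocytic Rabs, which return cargo to the plasma membrane or carry new cargo there, varied in both directions. Of the 10 tested, 5 were higher in LI and 5 in spleen, where 50.7% of all genes tested were higher in LI. The median log2 ratio was 0.00 and the SD 0.54, against an SD of 0.47 over all genes. That SD of 0.54 includes Rab25 (-1.08), which rests on few reads. Rab4a, the Rab of fast recycling from early endosomes, had 76.1 RPKM in spleen and 142 RPKM in LI over 12 peaks (chr8:123805985-123835287, plus strand). Every peak was higher in LI, and the log2 ratio was 0.85 (0.47 to 1.23), or 0.74 after GC correction. All 12 peaks lay at least 18.0 kb from the gene start, in introns but for the last, which overlapped the final exon. They also lay within Gm20388, a long annotated readthrough gene that spans the region, so the reads cannot be given to Rab4a alone by position.

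Rab8b and Rab8a, close relatives that carry vesicles to the plasma membrane, went in opposite directions. Rab8b (chr9:66843664-66919687, minus strand) held 46 peaks, 41 of them higher in LI, which summed to 366 RPKM in spleen and 556 RPKM in LI. Its log2 ratio was 0.56 (0.40 to 0.72) and 0.62 after GC correction. The strongest peak alone gave 0.18, and peaks of 1 kb or more gave 0.38. Rab8a (chr8:72161200-72183904, plus strand) held 5 peaks, 0 of them higher in LI, with sums of 90.1 RPKM in spleen and 76.1 RPKM in LI. Its log2 ratio was -0.29 (-0.55 to -0.03), but a peak of 16369 bp held most of its marked bases and weighting by length gave -0.10. Rab8a was densely marked, with 21.5 RPKM per base in spleen and 21.2 in LI, above 95.6% of the genes tested.

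Rab11a, which directs the recycling endosome, had 80.4 RPKM in spleen and 106 RPKM in LI (0.35, 0.01 to 0.70), and 0.69 after GC correction. Rab25, a Rab11 relative best known from epithelia, had a single peak of 14.6 RPKM in spleen and 6.84 RPKM in LI. Its log2 ratio of -1.08 had an interval of -2.55 to 0.39, from about 8.80 reads in spleen and 5.31 in LI, so its difference was not detectable at this depth. With a pseudocount of 5 RPKM it was -0.77, short of 2-fold, and after GC correction -1.40. Rab10, Rab14, Rab35, Rab11b and Rab4b had ratios between -0.22 and 0.32, with intervals that held 0.

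The ER and Golgi Rabs, which serve the early secretory pathway, gave 10 ratios from -0.33 (Rab33b) to 0.40 (Rab2b), and every interval held 0. Over all genes tested, 17.5% of intervals lay above 0 and 15% below. Rab1b, needed for transport from the ER to the Golgi, was the most densely marked, with 19.2 RPKM per base in spleen and 21.0 in LI. It carried 1 peak over most of its body, at 24.4 RPKM in spleen and 26.6 RPKM in LI (0.08, -0.10 to 0.25, and -0.10 after GC correction). The late endosome and lysosome Rabs had a median log2 ratio of -0.12. Rab7, which governs fusion with lysosomes, had 286 RPKM in spleen and 271 RPKM in LI (-0.12, -0.35 to 0.10). Rab12 had 126 RPKM in spleen and 131 RPKM in LI (0.01), while Rab29, Rab24 and Rab9, with 3, 2 and 2 peaks, had ratios of 0.10, -0.24 and -0.49 and intervals that held 0.

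Rabs of regulated secretion had a peak in 5 of 11 genes (45.5%), the lowest share of the larger Rab lists. This was close to the 45.8% of all protein-coding genes. Rab27a, which docks granules, had 309.9 RPKM in spleen and 279 RPKM in LI over 29 peaks (-0.20, -0.42 to 0.03). Rab3a, a Rab of synaptic vesicle release that neurons use most, had 16.2 RPKM in spleen and 21.9 RPKM in LI in 1 peak (0.38, 0.11 to 0.65), and 0.15 after GC correction. Rab3d, Rab26 and Rab37 had intervals that held 0. Outside these routes, Rab23, a negative regulator of Hedgehog signalling, had 110.4 RPKM in spleen and 161 RPKM in LI, and 12 of its 13 peaks were higher in LI (0.49, 0.16 to 0.83). Rab40c had a ratio of 0.04.

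**Figure D2:**
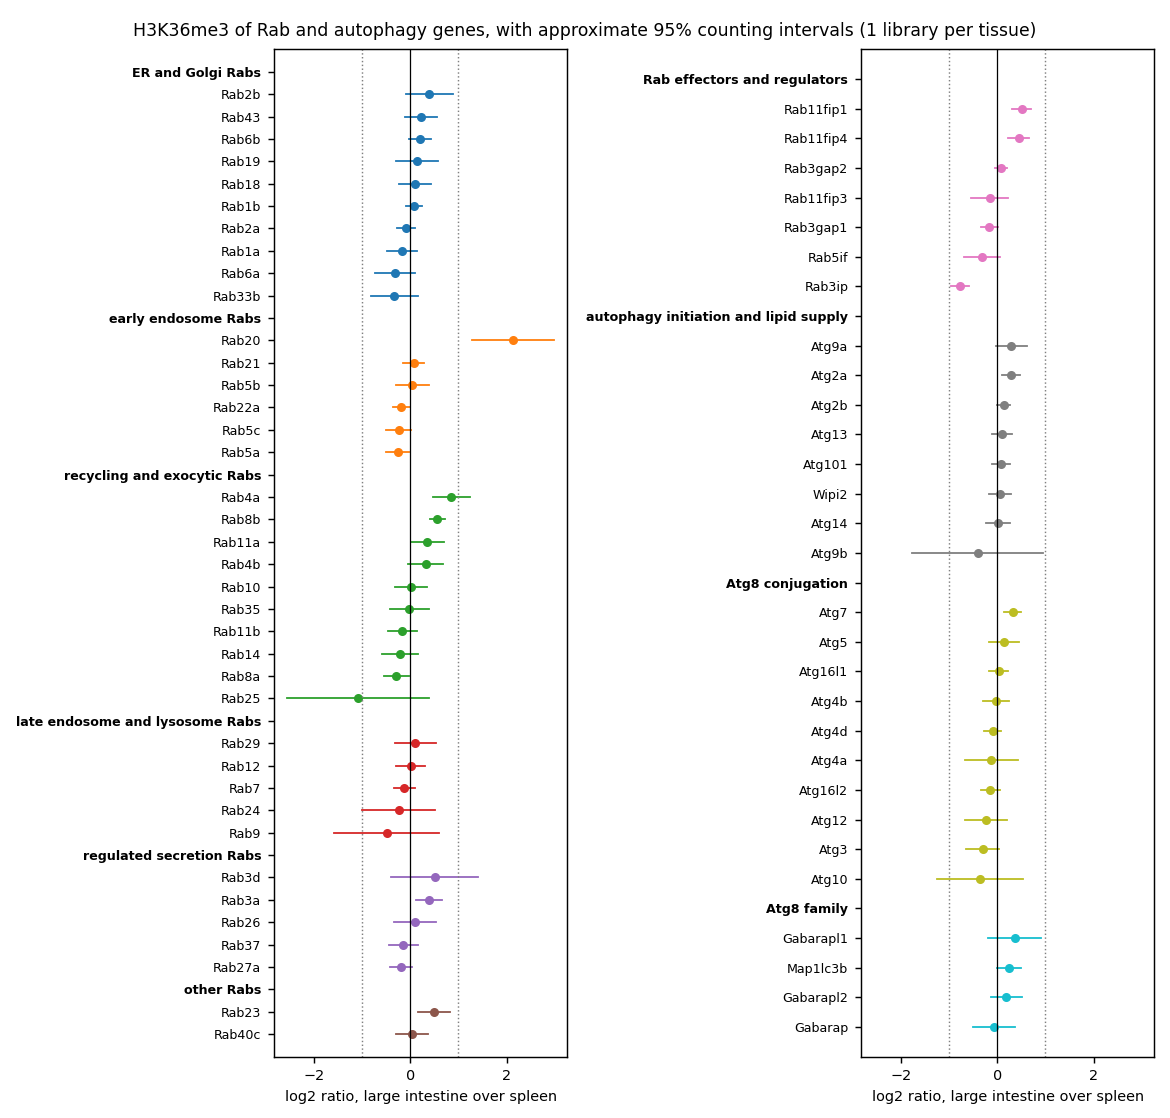
Log2 ratio of LI over spleen (x axis) of each of the 67 tested genes, grouped by role; points are ratios, bars approximate 95% counting intervals with reads taken as 200 bp, and dotted lines 2-fold. Rab20 lies at 2.13 and Rab3ip at -0.78, and the interval lies above 0 in 11 genes and below 0 in 4.

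Proteins that regulate or read Rabs held the clearest difference toward spleen. Rab3ip (ENSMUSG00000064181.6, chr10:116905784-116950769, minus strand) held 24 peaks, 23 in introns and 1 in an exon, with sums of 341.5 RPKM in spleen and 206 RPKM in LI. The 2 peaks higher in LI lay 24.1 kb and 29.2 kb from the gene start, among peaks higher in spleen. The log2 ratio was -0.78 (-0.97 to -0.58), the 294th lowest of 9456 genes, and -0.83 after GC correction. Under the 12 alternative settings it stayed between -0.83 and -0.61. The gene from which the Rab8 exchange factor is made thus carried 0.58 times its spleen level in LI (0.51 to 0.67), while Rab8b carried 1.47 times (1.32 to 1.64). Rab8a went the same way as Rab3ip, at 0.82 times (0.68 to 0.98). With peaks weighted by length the log2 ratio of Rab8b was 0.40 and that of Rab8a -0.10.

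Rab11fip1 and Rab11fip4, effectors that link Rab11 to motors and membranes, were higher in LI. Rab11fip1 had 201 RPKM in spleen and 295 RPKM in LI, with 19 of 21 peaks higher in LI (0.51, 0.31 to 0.70, and 0.41 after GC correction). Rab11fip4 had 202 RPKM in spleen and 284 RPKM in LI over 20 peaks, 15 of them higher in LI (0.45, 0.23 to 0.66, and 0.24 after GC correction). It fell to 0.05 when peaks were given to the nearest transcript start, which left it 4 peaks. Rab3gap1 and Rab3gap2 form the complex that turns off Rab3 and turns on Rab18. Rab3gap1 had 414 RPKM in spleen and 380.5 RPKM in LI (-0.17, -0.34 to 0.01, -0.02 after GC correction, and -0.86 for its strongest peak), and Rab3gap2 had 444 RPKM in spleen and 486 RPKM in LI (0.08, -0.04 to 0.21). Rab5if had 43.1 RPKM in spleen and 35.7 RPKM in LI, 0 of 3 peaks higher in LI, and an interval from -0.70 to 0.07.

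**Figure D3:**
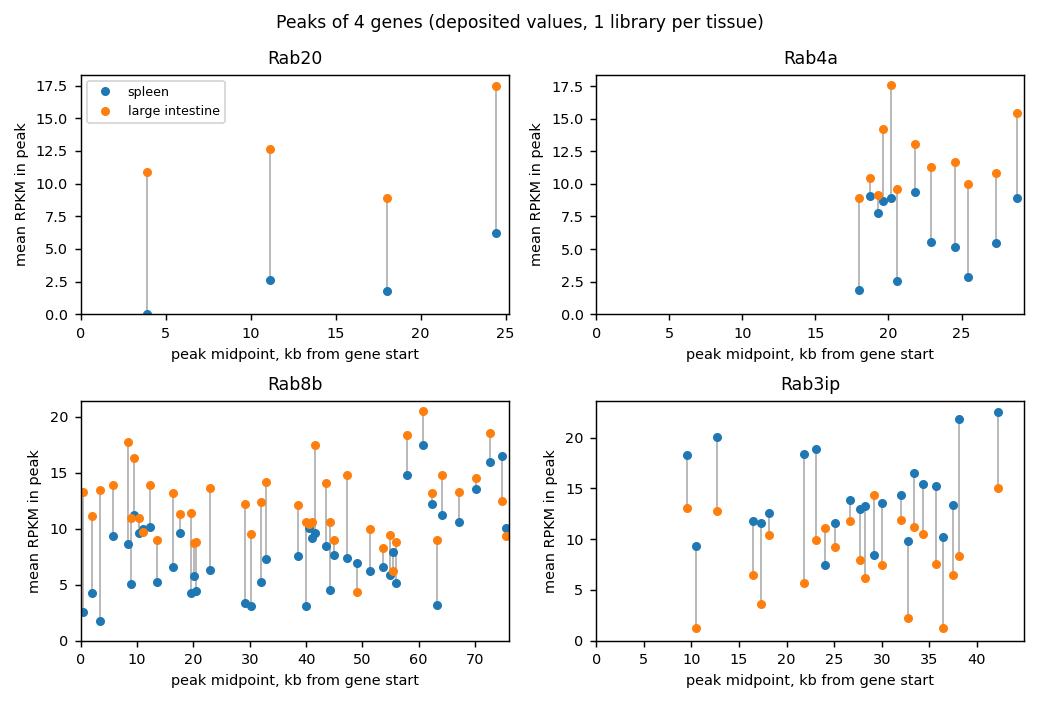
Mean RPKM of each peak (y axis) against the distance of its midpoint from the gene start (x axis, kb) in Rab20, Rab4a, Rab8b and Rab3ip, in spleen (blue) and LI (orange), joined by grey lines. LI is higher in all 4 peaks of Rab20 and all 12 of Rab4a, in 41 of 46 peaks of Rab8b and in 2 of 24 of Rab3ip.

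The autophagy genes had narrow ratios. Of the 22 tested, 0 were past 1.5-fold in either direction, where 9.02% of all genes were toward LI and 5.58% toward spleen. The median log2 ratio was 0.04 and the SD 0.22, against 0.00 and 0.47 over all genes. These genes were also more densely marked, at a median of 8.40 RPKM per base in spleen against 4.95 over all genes. Their median counting error was 0.13, against 0.16. With a filter at 200 RPKM, 4.97% of all genes were past 1.5-fold toward LI and 2.98% toward spleen. The part of signal level in the narrower spread was not tested. The interval lay above 0 in 3 (Atg7, Atg2a and Atg2b) and below 0 in 0, against 17.5% and 15% of all genes.

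Of the genes that start the autophagosome and supply its lipid, 7 of 8 were higher in LI, against 50.7% of all genes, with a median log2 ratio of 0.08 that was -0.02 after GC correction. Atg2a, whose product carries lipid to the growing membrane, was among the most densely marked genes in Treg cells, with 27.5 RPKM per base in spleen and 33.0 in LI, above 99.1% of the genes tested. It had 64.1 RPKM in spleen and 81.1 RPKM in LI over 3 peaks (0.29, 0.11 to 0.48), and -0.01 after GC correction. Atg2b, which does the same work, had 401 RPKM in spleen and 454 RPKM in LI over 31 peaks (0.13, 0.00 to 0.27), and 0.15 after GC correction. Atg9a, a lipid scramblase of the vesicles that seed the membrane, had 66.9 RPKM in spleen and 84.8 RPKM in LI (0.29, -0.02 to 0.61, and 0.06 after GC correction). Atg13 and Atg101 of the Ulk1 kinase complex, Wipi2, which reads the lipid signal, and Atg14 of the lipid kinase complex had ratios between 0.01 and 0.09. Atg9b, with 1 peak, had -0.41 (-1.77 to 0.95, and -0.74 after GC correction).

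The enzymes that couple Atg8 proteins to lipid had 3 of 10 genes higher in LI and a median log2 ratio of -0.11, which was -0.05 after GC correction. The medians of both lists thus lay close together once corrected. Atg7, the activating enzyme shared by both conjugation routes, was the exception with an interval clear of 0. It had 427 RPKM in spleen and 548 RPKM in LI over 46 peaks, 32 of them higher in LI (0.32, 0.15 to 0.49). Its partner Atg3, which passes Atg8 to lipid, had 125 RPKM in spleen and 105 RPKM in LI (-0.30, -0.64 to 0.04), and 0.07 after GC correction. Atg5, Atg12 and Atg16l1 form the complex that directs the coupling, and had ratios of 0.14, -0.23 and 0.03. The proteases that trim Atg8 had ratios of -0.13 (Atg4a, -0.33 after GC correction), -0.02 (Atg4b) and -0.10 (Atg4d). Atg4d was the most densely marked of the list, at 22.3 RPKM per base in spleen and 24.3 in LI. It had 67.3 RPKM in spleen and 64.9 RPKM in LI (-0.10, -0.27 to 0.08, and -0.21 after GC correction). Of its 3 peaks 1 also lay in Kri1, and 32.6% of its peak bases lay outside the gene body. Without the shared peak the ratio of Atg4d was -0.32, and its strongest peak alone gave 0.19. Atg16l2 had a ratio of -0.14, and 9 of its 20 peaks also lay in Fchsd2.

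Of the 5 Atg8 family genes, 4 had peaks, and Map1lc3a had none. Map1lc3b, which makes LC3B, had 57.2 RPKM in spleen and 69.9 RPKM in LI (0.24, -0.00 to 0.49, and 0.10 after GC correction), in 3 exon-centred peaks that also lay within Gm20388. It was densely marked, at 17.9 RPKM per base in spleen and 20.5 in LI. Gabarapl1 had 34.3 RPKM in spleen and 45.6 RPKM in LI (0.36, -0.19 to 0.91), Gabarapl2 had 62.1 and 73.2 RPKM (0.19, -0.13 to 0.51), and Gabarap had 38.0 and 37.4 RPKM (-0.07, -0.51 to 0.38). Every interval of the family held 0, that of Map1lc3b only just, where 17.5% of all genes tested lay above 0 and 15% below.

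Close relatives were set against each other, since they often share a route and can stand in for each other. Among 23 pairs in 15 families, 14 had ratios of opposite sign, and in 7 the interval of the difference left out 0. The same shares among pairs of unrelated genes were not computed. With 50.7% of all genes tested higher in LI, opposite signs are common in any set of pairs. Some of the pairs also share a gene. The widest of these was Rab8b against Rab8a, a difference of 0.85 in log2 ratio (0.55 to 1.15). They lay closer together by their strongest peaks alone, with 0.18 for Rab8b and -0.04 for Rab8a. Rab11fip3, with a ratio of -0.16 (-0.40 after GC correction), was below Rab11fip1 by a difference of -0.67 (-1.10 to -0.24). It was also below Rab11fip4, whose excess was 0.61 (0.17 to 1.05). Rab11b against Rab11a gave -0.51 (-0.97 to -0.06), Rab6b against Rab6a 0.53 (0.05 to 1.00), and Rab3gap2 against Rab3gap1 0.25 (0.03 to 0.47). Rab4b against Rab4a gave -0.53 (-1.06 to -0.00), an interval that only just left out 0, and the peaks of both genes also lay in readthrough genes (Gm21983 for Rab4b). After GC correction these 7 differences kept their sign, with 0.98 for Rab8, -0.95 for Rab11, 0.26 for Rab6 and 0.12 for Rab3gap. No interval was set for corrected differences, so whether the smaller ones of Rab6 and Rab3gap still leave out 0 was not tested. Outside the 7, some pairs turned sign, such as Rab1b against Rab1a (0.24, and -0.11 after correction) and Atg2b against Atg2a (-0.16 and 0.16). Relatives also differed in level: Rab8a carried 21.3 RPKM per base on average of both libraries and Rab8b 6.38, Rab1b 20.1 and Rab1a 4.999, and Atg9a 13.4 and Atg9b 0.33.

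**Figure D4:**
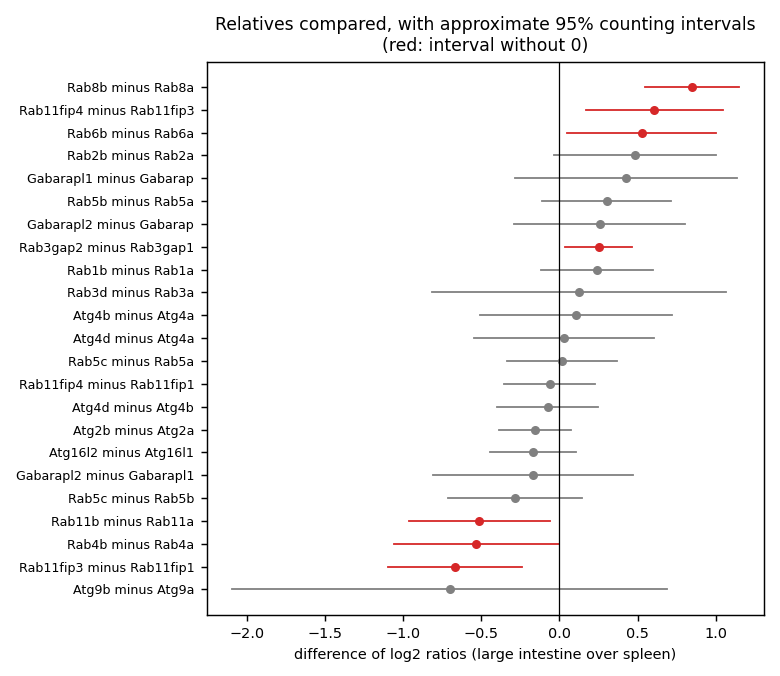
Difference in log2 ratio (LI over spleen) between relatives (x axis) in 23 pairs, with approximate 95% counting intervals. In the 7 red pairs the interval leaves out 0, with Rab8b minus Rab8a at 0.85 and Rab11fip3 minus Rab11fip1 at -0.67.

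Along the gene body the mark grew from start to end in both tissues. Over the 67 genes, the mean signal in the first 5% of the body was 0.36 RPKM in spleen and 0.57 RPKM in LI. It reached 10.9 RPKM in spleen and 12.1 RPKM in LI between 90% and 95% of the body, and was 9.42 and 10.6 RPKM at the very end. More signal lay beyond the midpoint than before it in 59 of 67 genes in each library (88.1%), against 84.5% of all genes tested in spleen and 85.2% in LI. Of single peaks, 55.5% of the 794 peaks of the set were higher in LI after scaling, against 48.9% of all peaks. In length, the peaks had a median of 445.5 bp in the set and 456 bp overall. Of the 794 peaks, 1 was listed at 0 in spleen, the Rab20 peak printed above, and 0 were in LI.

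**Figure D5:**
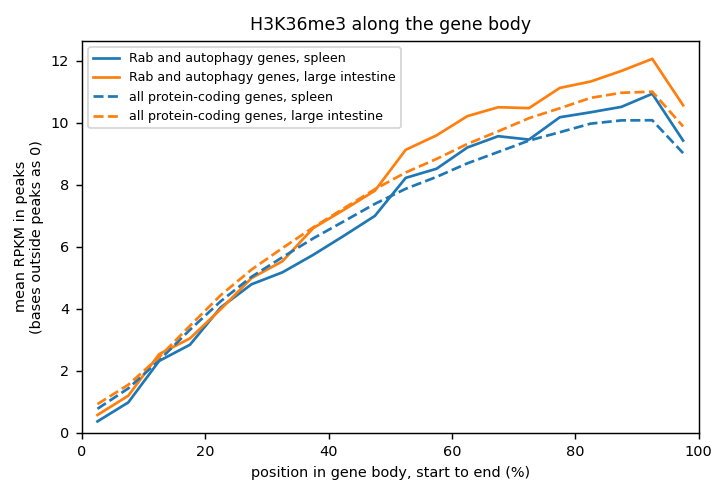
Mean RPKM in peaks, with bases outside peaks as 0 (y axis), along the gene body from start to end in bins of 5% (x axis), for the 67 Rab and autophagy genes (solid) and all 9456 protein-coding genes tested (dashed) in spleen (blue) and LI (orange). In the set the mean reaches 10.9 RPKM in spleen and 12.1 RPKM in LI near the end of the body.

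In 27 of the 95 genes no peak was found in either library. Among them were Rab3b, Rab3c and Rab27b, which serve regulated secretion, the melanosome and granule Rabs Rab32 and Rab38, the late endosomal Rab7b and Rab9b, and the epithelial Rab17. Rab13, Rab15, Rab28, Rab30, Rab31, Rab33a, Rab34, Rab36, Rab39, Rab39b, Rab40b, Rab42 and Rab44 had none either, nor did the effectors and regulators Rab11fip5 and Rab3il1. Of the autophagy genes Atg4c, Wipi1, Map1lc3a and Atg4a-ps had no peak. For the paralogue pairs Map1lc3b and Map1lc3a, Wipi2 and Wipi1, and Rab27a and Rab27b, peaks were called at the first gene alone. A gene without a peak carried no enrichment that passed the authors' threshold, and lower signal there was not analysed here.

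The wider machinery around the set was taken from lists of partner genes. Of 30 further autophagy genes 28 were tested, with a median log2 ratio of 0.09, or 0.05 after GC correction. LI was the higher library in 18 of them (64.3%), against 50.7% of all genes tested. The interval lay above 0 in 4 and below 0 in 2, and 0 were past 1.5-fold. At the ends of the list were Rubcn, which restrains autophagosome maturation, and Rb1cc1 of the Ulk1 complex. Rubcn had 211 RPKM in spleen and 304 RPKM in LI (0.48, and 0.35 after GC correction). Rb1cc1 had 271 RPKM in spleen and 222 RPKM in LI (-0.33, and -0.08 after GC correction). Of 60 further Rab regulators 50 were tested, 25 higher in each tissue, with a median of 0.04. Here 7 genes were past 1.5-fold toward LI and 3 toward spleen, and the interval lay above 0 in 17 and below 0 in 9. Over all genes 9.02% and 5.58% were past 1.5-fold and 17.5% and 15% had an interval clear of 0, toward LI and spleen. The ends were Rin2, an exchange factor for Rab5, and Tbc1d4, a GTPase-activating protein for Rab8 and Rab10. Rin2 had 64.6 RPKM in spleen and 172 RPKM in LI (1.36, 0.96 to 1.76, and 1.23 after GC correction). Tbc1d4 had 279.9 RPKM in spleen and 138 RPKM in LI (-1.06, -1.29 to -0.83). Genes that switch Rabs (SD 0.46) were thus spread about as widely as all genes tested (SD 0.47). The autophagy members, which were more densely marked, were spread less (SD 0.22), a description of 2 libraries.

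Some members belong to signature lists of Treg subsets in the study's supplement, which rest on expression in other samples. The colonic Treg list held Rab11fip1, Gabarapl1 and Rab43, with log2 ratios of 0.51, 0.36 and 0.22, and the splenic list held Rab11fip2, which was under the filter at 9.27 RPKM in spleen and 7.58 RPKM in LI. The list for Treg cells with the IL-33 receptor ST2 held 6 members, of which Rab20 (2.13), Rab11fip1 (0.51) and Rab26 (0.10) were tested and Rab31, Rab36 and Rab3il1 had no peak. The list for RORgt+ Treg cells also held 6, of which Rab23 (0.49), Gabarapl1 (0.36), Atg5 (0.14), Rab19 (0.13) and Rab35 (-0.02) were tested. After GC correction Rab43 had 0.11, Rab26 -0.08 and Rab35 -0.19. The intervals of Gabarapl1 (-0.19 to 0.91), Rab43 (-0.12 to 0.56), Rab26, Atg5, Rab19 and Rab35 held 0. Those of Rab20, Rab11fip1 and Rab23 lay above it. Ratios of the other genes on these lists are not given here. The peaks of Rab43 all lay within the readthrough gene Gm45140 as well.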

How the data were processed

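H3K36me3 ChIP-seq libraries of splenic and LI Treg cells were used. Reads (75 nt, single-end) were aligned by the authors to mm10 with Bowtie2, called peaks per tissue with MACS2 (p of 0.01) against the input, merged them with bedtools, and averaged RPKM coverage over each merged peak. The deposited table is named for raw counts, but its values are mean RPKM, so no count test was run. Tool versions are not given in the sources used here.

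Here peaks were given to every protein-coding gene of GENCODE M21 whose body holds their midpoint, and summed. Log2 ratios used a pseudocount of 0.5 RPKM, which understates changes of low genes, after which the log2 ratio of both totals over all peaks (0.05) was subtracted. Depth was inferred from the values, which times peak length are whole multiples (within 0.1, in 100% of low peaks) of a step of 1.69 RPKM in spleen and 1.31 RPKM in LI. The counting interval takes each read as covering 200 bp in bins of 20 bp and as independent. It covers counting error only. With 1 library per tissue no p-value was computed. Signal per base is the mean RPKM over the gene body, with bases outside peaks as 0. GC correction removed the median peak log2 ratio of each of 20 equal bins of GC content from the LI values. The steps were tested on simulated data. Python 3.11.15, pandas 2.3.3, numpy 2.4.6 and pysam 0.24.0 were used.

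The members, the lists by role, the partner lists and the alternatives were chosen with earlier results of these data known. Named genes were those past 2-fold, the 6 with the highest lower bound and the 6 with the lowest upper bound of the interval, the most densely marked gene of each role, and the Atg8 family. Other genes were named as members of their role or for counts, after their values were seen. A further 12 settings covered scaling, pseudocount, filter, gene assignment, peak choice and GC content, and 1 was added after seeing the data. A further marker gene is not reported here.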

Additional observations from a re-analysis of the deposited data

How the results depend on the processing

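No paired analysis was possible because each tissue has 1 library. Of the 6 summary values under 12 other settings, 56 kept within their error or 1.5 times their count and 16 moved. Past 2-fold, 0 genes were higher in spleen with a pseudocount of 5, where Rab25 had -0.77. The count was also 0 with peaks of 1 kb or more and after GC correction, because Rab25, with its 1 peak of 223 bp, fell out of the tested genes (its corrected ratio was -1.40). With a filter at 200 RPKM, which left 33 genes, 0 were past 2-fold in LI and 0 in spleen, 1 and 1 were past 1.5-fold, and 19 were higher in LI. When each gene was represented by its strongest peak, the median log2 ratio was 0.10, and 5 genes were past 1.5-fold in each tissue. Without peaks that lie in another coding gene, which drops Rab4a, 1 gene was past 1.5-fold in LI, and with peaks of 1 kb or more 1 was in spleen. With peaks given to the nearest transcript start 0 were past 2-fold in LI and 0 in spleen, and Rab20 had no value. After GC correction 4 genes were past 1.5-fold in LI. Of the single genes, Atg2a reversed after GC correction (-0.0066). Of the values outside the 6 summaries, 237 stayed the same by the same measure. A further 21 moved, which include the interval counts given next. If reads are taken to cover 75 bp, a length added after seeing the data, the interval lay above 0 in 17 genes and below 0 in 13. Except where named, the cause was not tested. Each tissue has a single library, so variation between mice, sorts and immunoprecipitations is not measured, and small genes such as Rab25 rest on few reads.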
